A study of Mus musculus with 30 samples.

Results

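The genes described here are 35 genes that mark the ciliated and secretory lining of the airways and lung, out of 50686 genes counted in 30 libraries of mouse thyroid. They comprise 22 genes of motile cilia, 4 genes of club cells, 5 genes of goblet and other secretory cells and 4 genes of alveolar cells. They were chosen by their levels and group differences in earlier results from the same 30 libraries, so their values are given as a description and their directions are not independent of that choice. All 35 were found in the count files, 33 under their current symbol and 2 (Dnai1 and Dnai2) under the older symbols Dnaic1 and Dnaic2.

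Thyroids of C57BL/6 mice were sequenced as poly(A) RNA, with 3 mice in each of 10 groups. FAD4T and WT (wild-type) females were taken at 8 months, and so were FAD4T and WT males. FAD4T and WT females, and FAD4T and WT males, were also taken at 2 months. A separate ageing set held WT males of 18 months and further WT males of 2 months, which carry the numbers 4 to 6. FAD4T is given by the labels only as a genotype name: the alleles it carries, their promoter and the number of founder lines are not given in the sources used here, and all groups share the C57BL/6 strain. No label names a litter, dissection day or sequencing batch.

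Motile cilia beat by means of dynein arms that slide the microtubule doublets of the axoneme, with radial spokes and tektin filaments as further parts, and the transcription factor FOXJ1 switches this programme on. Club cells of the airway secrete small proteins called secretoglobins, goblet and gland cells secrete mucins and antimicrobial proteins, and alveolar type II cells make surfactant. The thyroid follicle shares the transcription factor NKX2-1 with lung epithelium and lies against the trachea, and its cells carry a single non-motile cilium.

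The libraries held between 14083958 and 20256049 assigned counts. Levels are given as CPM, a count relative to its library's total after scaling by the trimmed mean of M values over all 30 libraries, and 1 count was worth 0.0506 to 0.0784 CPM. Of the 35 genes, 14 had at least 10 counts in every library, 12 had 0 counts in at least 1 library and 7 had a median under 10 counts. A count of 0 allows up to 3 counts, or 0.152 to 0.235 CPM depending on the library, and such limits cover counting error only. The 11 thyroid follicle genes checked against the tissue label had a list level (the mean of log2(CPM + 1) over a list) of 7.34 to 9.04 in the 30 libraries. Other list levels differed widely between libraries, from 2.14 to 10.17 for 3 parathyroid genes, 1.05 to 11.48 for 8 skeletal muscle genes, 0.16 to 4.92 for 9 thymocyte genes, 0.16 to 7.15 for 10 liver genes and 0.02 to 1.56 for 8 kidney genes. Of the 35 genes, 9 share exon bases with another gene (Dnah9, Dnah11, Dnai1, Tekt2, Spag6, Hydin, Cfap43, Ccdc39 and Cyp2f2), and their reads could not be told apart from it where it lies on the other strand, since counting did not use strand. Spag6 has a near-identical copy, Spag6l, and is uncertain for that reason too. In these bulk libraries, fewer cells of a type and less RNA per cell cannot be told apart.

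RefSeq windows running from 250 bases before to 50 bases after a RefSeq start were found for 26 of the 35 genes, on the mouse build GRCm38.p6. For each gene the window nearest to the 5' end of the counted gene was taken. The 9 without a window were Foxj1, Rsph1, Rsph4a, Tppp3, Scgb1a1, Scgb3a2, Muc5b, Sftpc and Sftpd. The 5 shown belong to genes whose levels set the groups or libraries below apart: Sec14l3, Sftpa1 and Bpifa1 among the genes that stood out at 8 months or in single libraries, and the tektins Tekt1 and Tekt4, which moved in opposite directions with age. Capitals mark matches on either strand to 3 short motifs, the RFX core GTTGCC, the NKX2-1 core CTCAAG and the forkhead core TGTTTAC, and no 2 matches overlap in these windows. The Sec14l3 window lies at chr11:4064603-4064902 (+), that of Sftpa1 at chr14:41131538-41131837 (+), that of Bpifa1 at chr2:154142630-154142929 (+), that of Tekt1 at chr11:72361833-72362132 (-) and that of Tekt4 at chr17:25471340-25471639 (+).
Sec14l3: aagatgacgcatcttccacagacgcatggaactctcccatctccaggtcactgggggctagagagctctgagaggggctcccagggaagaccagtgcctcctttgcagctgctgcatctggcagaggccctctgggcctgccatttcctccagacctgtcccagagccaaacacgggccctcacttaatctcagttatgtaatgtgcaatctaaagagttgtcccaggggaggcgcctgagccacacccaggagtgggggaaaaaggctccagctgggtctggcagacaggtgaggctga
Sftpa1: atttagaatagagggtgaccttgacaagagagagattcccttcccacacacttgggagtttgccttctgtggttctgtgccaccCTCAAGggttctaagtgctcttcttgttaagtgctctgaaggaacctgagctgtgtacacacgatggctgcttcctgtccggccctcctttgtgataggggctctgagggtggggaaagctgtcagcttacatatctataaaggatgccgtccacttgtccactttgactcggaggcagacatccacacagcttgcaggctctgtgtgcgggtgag
Bpifa1: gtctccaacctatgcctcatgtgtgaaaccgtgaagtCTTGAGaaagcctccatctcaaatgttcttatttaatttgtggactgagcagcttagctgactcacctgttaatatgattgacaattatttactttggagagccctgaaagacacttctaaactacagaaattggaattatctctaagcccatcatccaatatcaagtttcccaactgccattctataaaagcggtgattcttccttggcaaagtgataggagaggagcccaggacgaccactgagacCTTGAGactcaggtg
Tekt1: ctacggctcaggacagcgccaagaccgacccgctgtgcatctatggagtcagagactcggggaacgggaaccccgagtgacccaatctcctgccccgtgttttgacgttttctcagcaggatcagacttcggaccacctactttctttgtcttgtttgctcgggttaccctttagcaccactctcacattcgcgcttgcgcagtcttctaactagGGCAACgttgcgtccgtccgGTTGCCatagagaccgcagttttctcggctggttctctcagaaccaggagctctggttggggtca
Tekt4: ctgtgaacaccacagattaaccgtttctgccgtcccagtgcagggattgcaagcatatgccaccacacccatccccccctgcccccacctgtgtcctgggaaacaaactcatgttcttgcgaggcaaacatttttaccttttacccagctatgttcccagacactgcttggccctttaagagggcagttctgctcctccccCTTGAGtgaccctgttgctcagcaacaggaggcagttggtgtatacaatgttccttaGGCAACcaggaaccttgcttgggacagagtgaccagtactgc

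The Tekt1 window held 2 matches to the RFX core, 1 on each strand. It lies inside the counted gene, whose 5' end is at chr11:72362442. The Tekt4 window held 1 match to the RFX core and 1 to the NKX2-1 core. The Bpifa1 window held 2 matches to the NKX2-1 core, the Sftpa1 window held 1, and the Sec14l3 window held none of the 3 motifs. Among the windows of the 22 ciliary genes that could be read, 8 of 18 held the RFX core, against 12.5% of all 32851 windows. The NKX2-1 core was in 9 of the 26 windows, against 15.9% of all windows, and the forkhead core in 1 of 26, against 3.6%. These counts describe letters in the windows and not binding.

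The ciliary genes did not form a single pattern over the libraries. Per kilobase of exon, Tekt1 had the highest median of the 35 genes, at 15.6 RPKM (CPM per kilobase), and the outer-arm dynein heavy chain Dnah5 the lowest, at 0.0216 RPKM. Tppp3, a tubulin polymerisation protein of multiciliated cells, had a median of 12.3 RPKM and a range of 13.1 to 63.9 CPM, with its highest level in replicate 6 of the WT males of 2 months. The median of the radial spoke gene Rsph1 was 2.93 RPKM. Foxj1 itself had a median of 0.490 RPKM. Over the 231 pairs of ciliary genes the median Spearman correlation across the 30 libraries was 0.20, with a range of -0.59 to 0.85. The corresponding medians were 0.61 over 6 club cell pairs, 0.71 over 10 goblet and secretory pairs and 0.53 over 6 alveolar pairs. The points share their libraries, groups and depth, and several genes differ in level between groups, so these values are descriptions.

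**Figure D1:**
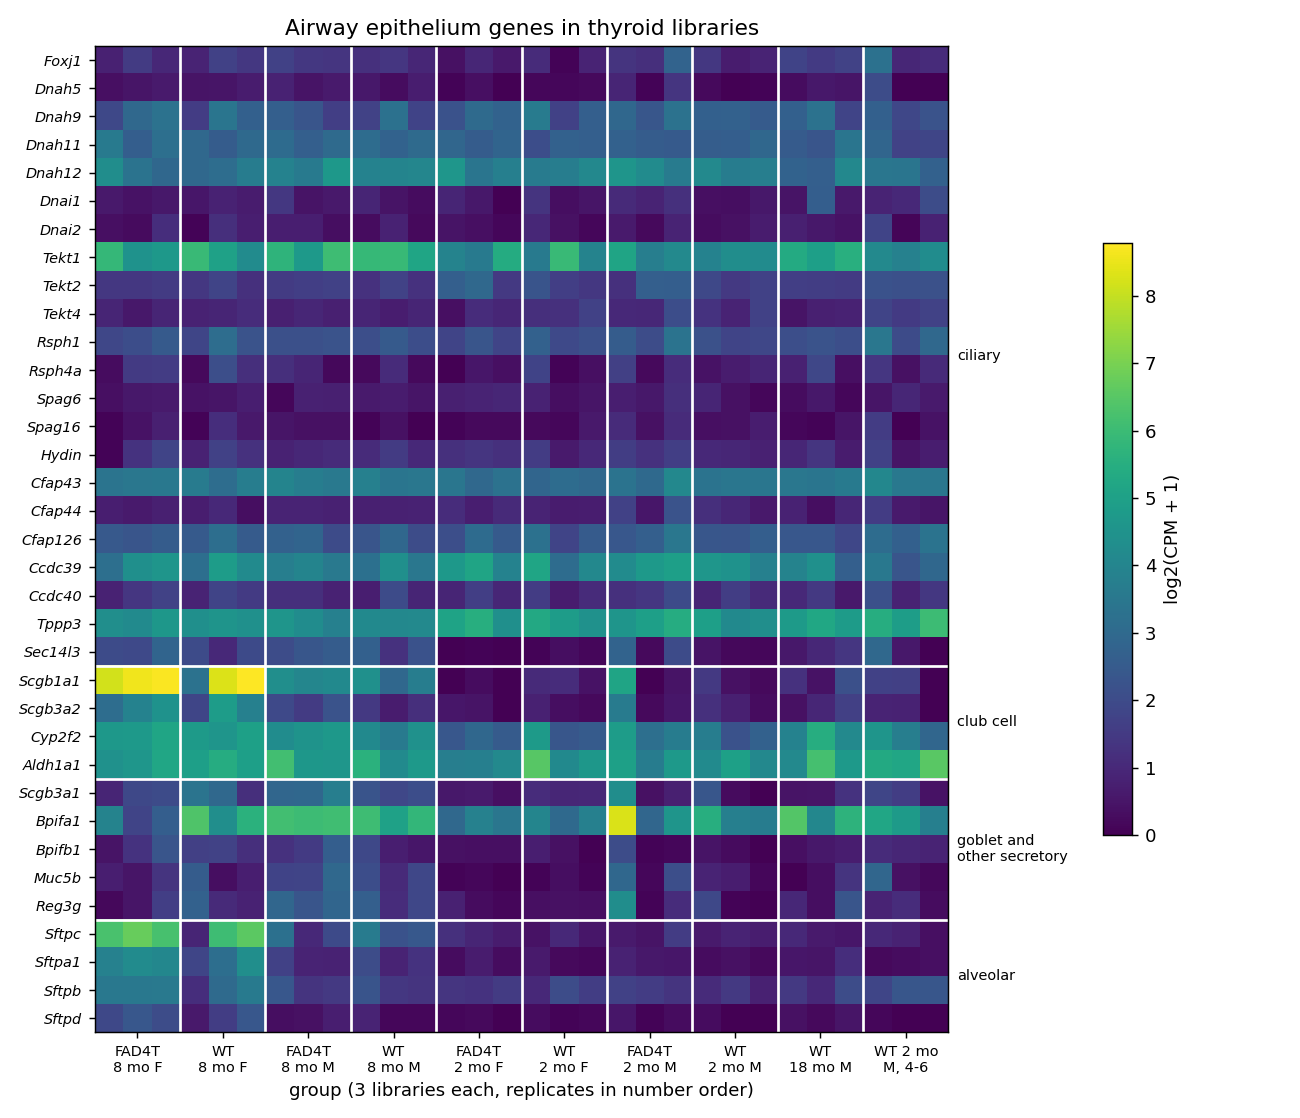
Level of each of the 35 genes (rows, by class) in each of the 30 libraries (columns, 3 per group), as log2(CPM + 1). Scgb1a1 and Sftpc are brightest in the females of 8 months other than WT replicate 1, and Bpifa1 is brightest in FAD4T male replicate 1 of 2 months, at 314 CPM.

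Foxj1 and several axonemal genes were highest in the same pair of libraries, which came from different groups. Foxj1 reached 8.65 CPM in replicate 4 of the WT males of 2 months in the ageing set and 5.89 CPM in replicate 3 of the FAD4T males of 2 months, against a median of 1.29 CPM over all libraries. No other library was above 2.43 CPM. Dnah5 was at 3.11 and 1.54 CPM in these libraries, with a median of 0.337 CPM. Rsph1 was at 10.3 and 9.14 CPM, with a median of 3.41 CPM. Of the 22 ciliary genes, 7 had their highest level in the first of these libraries and 5 in the second. The 7 include the dynein intermediate chain Dnai2 (2.49 CPM), the central pair gene Spag16 (1.98 CPM) and the dynein arm assembly gene Ccdc40 (3.45 CPM), and the 5 are Tekt4 (3.19 CPM), Spag6 (1.27 CPM), Cfap43 (16.2 CPM), Cfap44 (3.80 CPM) and Cfap126 (10.1 CPM). Outside the 35 genes, Tmem212 was at 3.34 and 2.48 CPM in the same libraries and at most 0.544 CPM in any other, and Cdhr3 at 4.18 and 3.08 CPM and at most 1.03 CPM in any other. Both genes were picked from 48 other genes of motile cilia after their values were seen, and not all of that list peaked there. Dnaaf3 was highest at 13.4 CPM in replicate 1 of the WT females of 2 months, against 5.65 and 7.87 CPM in this pair. Rfx2 was highest at 11.3 CPM in replicate 2 of the WT males of 18 months. The initiators of multiciliation were at or near 0 everywhere: Mcidas reached at most 0.0732 CPM and Gmnc at most 0.152 CPM. Deup1, which acts in centriole amplification, was at 0.512 to 15.4 CPM.

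Some other axonemal genes, but not all, were low where the parathyroid list was low. The libraries fall into separate clusters by the level of the 3 parathyroid genes, since 9 lay between 2.14 and 4.31 and the other 21 between 7.6 and 10.17, so correlations are given within each cluster. Over the 21 libraries of the upper cluster, Dnah9, an outer-arm dynein heavy chain, had a Spearman correlation of 0.79 with the parathyroid level, and the radial spoke head gene Rsph4a one of 0.61. The value was 0.58 for the dynein assembly gene Ccdc39, 0.45 for its partner Ccdc40, 0.44 for the central pair gene Hydin and 0.16 for Foxj1. Over the 9 libraries of the lower cluster it was -0.20 for Dnah9, -0.15 for Rsph4a, 0.48 for Ccdc39, 0.08 for Ccdc40, 0.08 for Hydin and -0.08 for Foxj1. Dnah9 was at 1.97 to 3.61 CPM in the lower cluster and 3.72 to 11.5 CPM in the upper one. Rsph4a was at 0.313 CPM or less in the lower cluster and had a median of 1.11 CPM in the upper one. The relation was seen after the values were known.

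Within groups the same libraries stood apart. In WT males of 8 months, Dnah9 was at 2.32, 8.72 and 2.42 CPM in replicates 1 to 3, whose parathyroid levels were 3.73, 9.56 and 3.6. In FAD4T females of 8 months it was at 2.71, 6.79 and 8.89 CPM, beside parathyroid levels of 4.31, 9.22 and 9.81. In WT females of 8 months it was at 1.97, 9.65 and 5.52 CPM, beside levels of 3.54, 10.17 and 9.08. In WT males of 18 months Dnah9 was at 5.51, 8.80 and 2.52 CPM, beside levels of 9.05, 9.74 and 2.21. In each of these groups the libraries of low parathyroid level had less Dnah9 than every other library of the group. Whether parathyroid tissue carries these transcripts was not tested.

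**Figure D2:**
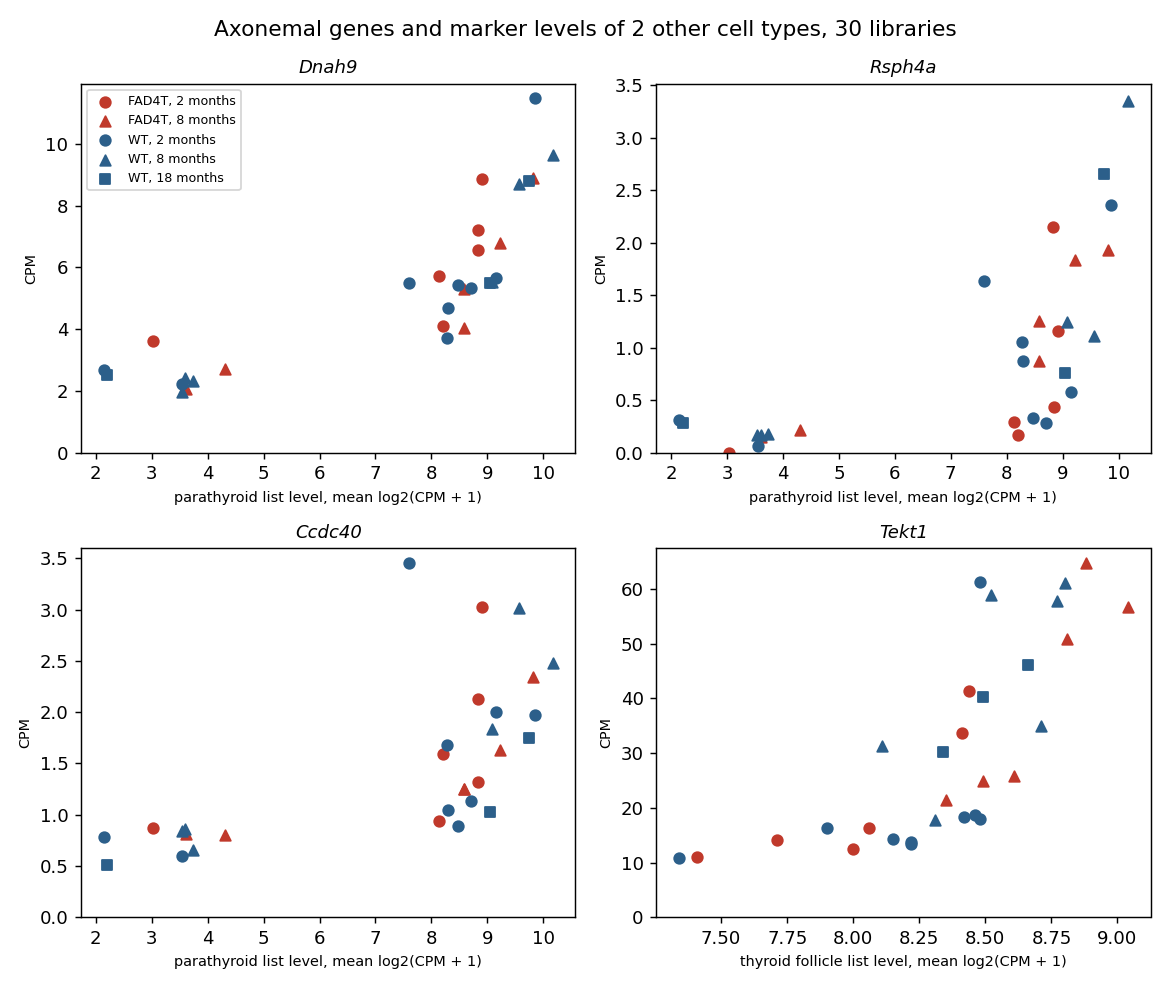
Level in CPM of Dnah9, Rsph4a and Ccdc40 against the parathyroid list level, and of Tekt1 against the thyroid follicle list level, for the 30 libraries coloured by genotype (FAD4T, WT) and shaped by age. Dnah9 lies at 3.61 CPM or less in the 9 libraries of low parathyroid level, and Tekt1 ranges from 10.9 to 64.7 CPM with a Spearman correlation of 0.85 with the follicle level.

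Tekt1, a tektin that lies along the doublet microtubules, followed the thyroid follicle list in place of the other ciliary genes. Its median correlation with the other 21 ciliary genes was -0.22, against 0.85 with the follicle list level. It ranged from 10.9 to 64.7 CPM and was at 56.6, 21.4 and 24.9 CPM in FAD4T females of 8 months and at 61.1, 31.4 and 17.8 CPM in WT females of 8 months. Among 16454 other genes with at least 1 CPM in at least 5 libraries, the gene most like it was the thyrotropin receptor Tshr, with a Spearman correlation of 0.89 over 30 libraries. Dnah11, a further dynein heavy chain, had a correlation of 0.65 with the follicle list, but it shares exon bases with Cdca7l, from which the counting did not separate it by strand. Tekt2 and Tppp3 ran the other way, with correlations of -0.61 and -0.67 with the follicle list. The closest gene to Tekt1 and its list were looked up after the values were seen.

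Sec14l3, a lipid-binding gene of ciliated airway cells, was a ciliary gene that went with secretory ones. Its correlation was 0.88 with the mucin Muc5b and 0.79 with Scgb1a1 over the 30 libraries, against 0.48 with Foxj1. Dnah5 had a correlation of 0.67 with Scgb1a1 and 0.61 with Foxj1. Sec14l3 was at 3.00, 2.85 and 6.13 CPM in FAD4T females of 8 months and at 2.98, 1.0 and 2.96 CPM in WT females of 8 months. It was at 3.16, 4.14 and 4.86 CPM in FAD4T males of 8 months and at 5.53, 1.37 and 3.62 CPM in WT males of 8 months. In FAD4T females of 2 months it was at 0.0546 CPM or less, and in WT females of 2 months at 0.241 CPM or less. The 2-month males were uneven, at 5.96, 0.164 and 3.03 CPM in FAD4T mice and 0.391, 0.129 and 0.117 CPM in WT mice. Replicates 1 and 3 of these FAD4T males thus lay within the range of the 8-month libraries, 1.0 to 6.13 CPM. The highest Sec14l3 level of all, 6.84 CPM, was in replicate 4 of the WT males of 2 months.

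Scgb1a1, the main secretoglobin of club cells, ranged from 0 to 438 CPM over the libraries. In FAD4T females of 8 months it was at 290, 383 and 426 CPM, and in WT females of 8 months at 8.93, 318 and 438 CPM. Replicate 1 of these WT females stood apart and lay in the range of the males of the same age, which were at 19.2, 15.4 and 17.0 CPM in FAD4T mice and 20.2, 6.55 and 12.1 CPM in WT mice. Among the libraries of 2 and 18 months only replicate 1 of the FAD4T males of 2 months, at 33.7 CPM, was above 3.43 CPM. In 4 of those libraries no Scgb1a1 read was counted. Scgb3a2, another secretoglobin, was high in most of the same libraries: 7.90, 13.9 and 21.2 CPM in FAD4T females of 8 months, against 2.58, 27.7 and 13.1 CPM in WT females of 8 months, and 11.5 CPM in replicate 1 of the FAD4T males of 2 months. The correlation between the secretoglobins was 0.92.

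The remaining club cell genes were less particular. Cyp2f2, a cytochrome P450 of club cells that liver also makes, was between 1.78 and 21.6 RPKM, with its highest level of 43.7 CPM in replicate 2 of the WT males of 18 months. Aldh1a1, a retinaldehyde dehydrogenase made in many tissues, was highest at 91.5 CPM in replicate 6 of the WT males of 2 months and 88.4 CPM in replicate 1 of the WT females of 2 months. Replicate 1 of the WT females also had the highest liver list level, 7.15, with 2350 CPM of Alb, and 26.6 CPM of Cyp2f2 against 4.10 and 4.70 CPM in the other WT females of 2 months. Aldh1a1 had a correlation of 0.68 with the skeletal muscle list. The part of liver or muscle tissue in these levels was not tested.

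The alveolar genes were high in the same libraries as Scgb1a1. Sftpc, surfactant protein C and the defining product of alveolar type II cells, was at 75.2, 105 and 74.2 CPM in FAD4T females of 8 months, against 0.899, 65.7 and 94.1 CPM in WT females of 8 months. It was at 8.47, 1.03 and 2.94 CPM in FAD4T males of 8 months and at 11.7, 3.59 and 4.37 CPM in WT males of 8 months. No library of 2 or 18 months was above 1.98 CPM. Sftpa1, a surfactant collectin, was at 13.5, 17.7 and 15.9 CPM in FAD4T females of 8 months and at 2.58, 8.04 and 19.4 CPM in WT females of 8 months. Sftpb and Sftpd, the other surfactant proteins, had their highest levels of 11.04 and 4.27 CPM in replicate 3 of those WT females. Replicate 1 of the WT females was again the exception, with 1.24 CPM of Sftpb and 0.506 CPM of Sftpd.

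Among 10 other alveolar genes, Lamp3 and Cldn18 were high in the same libraries, and others were not. Lamp3 was at 2.12, 3.53 and 1.59 CPM in FAD4T females of 8 months and at 0.112, 1.07 and 2.43 CPM in WT females of 8 months, and at most 0.159 CPM in the other 24 libraries. Cldn18 was at 2.85, 2.31 and 1.65 CPM in FAD4T females of 8 months and at 0, 1.47 and 2.23 CPM in WT females of 8 months, and at most 0.476 CPM elsewhere. Slc34a2 was at 5.34, 8.02 and 5.93 CPM in FAD4T females of 8 months. It was at 0.337, 2.55 and 7.29 CPM in WT females of 8 months, and reached 3.78 CPM elsewhere. Others of the 10 genes were high in all 30 libraries and did not set these apart. Among them were Ager (431 to 2450 CPM), Napsa (106 to 510 CPM), Abca3 (73.3 to 285 CPM) and Aqp5 (36.1 to 121 CPM). Nkx2-1 was between 240 and 668 CPM.

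Within a library, club cell and alveolar transcripts stood in a fairly steady ratio where both were high. The ratio of Scgb1a1 to Sftpc was 3.86, 3.64 and 5.74 in FAD4T females of 8 months and 4.85 and 4.66 in replicates 2 and 3 of the WT females. It was 9.94 in replicate 1 of those WT females and 61.2 in replicate 1 of the FAD4T males of 2 months, where Sftpc was at 0.551 CPM. The ratio of Scgb1a1 to Bpifa1 split the libraries more widely, from 9.29 to 156 in the same 5 libraries of 8 months to at most 0.310 in all others.

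**Figure D3:**
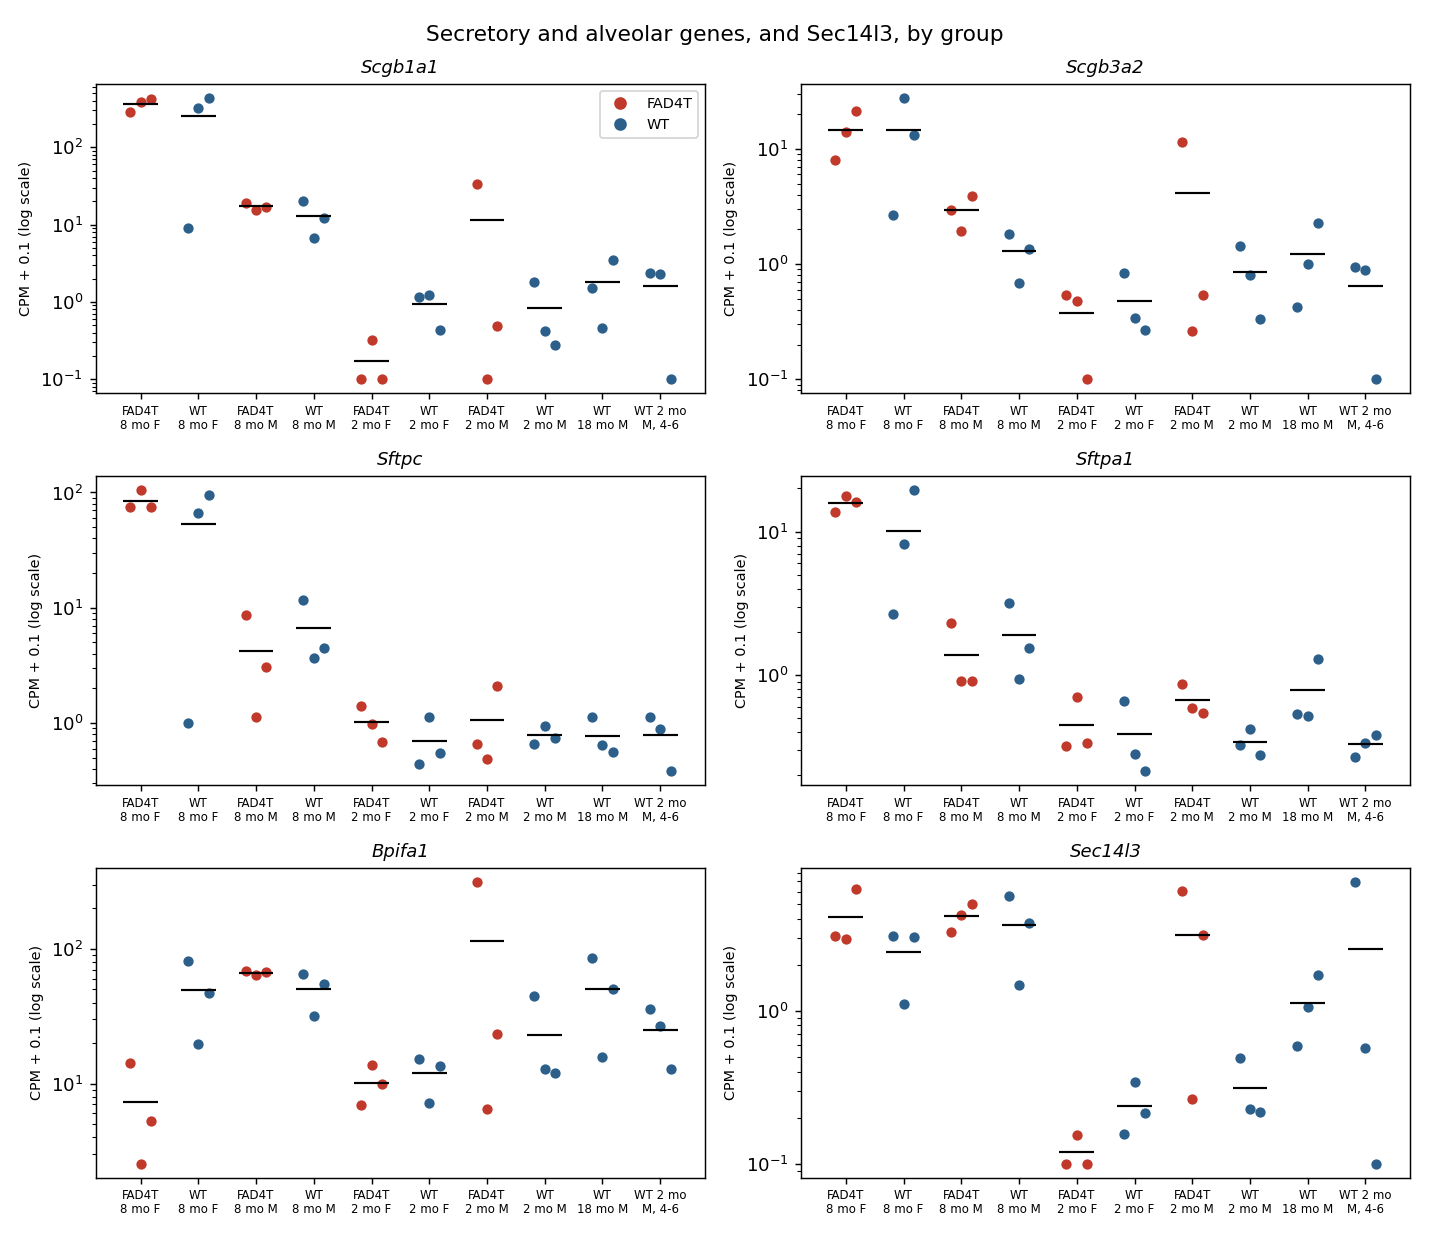
Level of Scgb1a1, Scgb3a2, Sftpc, Sftpa1, Bpifa1 and Sec14l3 in each library (points, CPM + 0.1 on a log scale) by group, with the group mean as a bar. In Scgb1a1, Sftpc and Sftpa1 the females of 8 months lie above all others except WT replicate 1, whereas in Bpifa1 the FAD4T females of 8 months, at 2.45 to 14.0 CPM, lie at the low end.

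Bpifa1, an antimicrobial and surface-active protein of the upper airway, had another distribution. It was at 14.0, 2.45 and 5.17 CPM in FAD4T females of 8 months. In WT females of 8 months it was at 81.5, 19.4 and 47.2 CPM. Its female groups of 8 months did not overlap, lower in FAD4T, as for 7.02% of all genes. In FAD4T males of 8 months it was at 68.2, 63.9 and 67.5 CPM, and in WT males of 8 months at 65.1, 31.4 and 54.7 CPM. Replicate 1 of the FAD4T males of 2 months had 314 CPM, against 6.42 and 23.1 CPM in the other libraries of its group. The same library had the highest levels of Scgb3a1 (18.6 CPM), a secretoglobin of goblet cells, and of the C-type lectin Reg3g (18.9 CPM), and the second highest of Muc5b (6.67 CPM). Bpifb1, a relative of Bpifa1, was at 3.09 CPM there and highest at 5.16 CPM in replicate 3 of the FAD4T males of 8 months. Muc5b, a gel-forming mucin of the airway, was highest at 6.79 CPM in that same male of 8 months, had 4.89 CPM in replicate 1 of the WT females of 8 months and 6.45 CPM in replicate 4 of the WT males of 2 months, and had a median of 0.651 CPM. Muc5ac, outside the list and the gel-forming mucin of surface goblet cells, was at 0.526 CPM or less in all libraries.

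The genes closest to each of 3 named members were looked up by a fixed rule, among the 16454 genes above. Foxj1 was closest to Gadd45a (0.69), Ehd3 (0.67), Cfap65 (0.66), Tnni3 (0.66) and Lzts1 (0.65), each value a Spearman correlation over 30 libraries, and Cfap65 is the axonemal gene among them. Scgb1a1 was closest to Gm12435 (0.81), Rbm3-ps (0.81), Gm8822 (0.78), Eif4a-ps4 (0.77) and Gm12183 (0.77). Sftpc was closest to Gm5844 (0.77), Actg-ps1 (0.76), Cxcl10 (0.75), Gm12183 (0.74) and Gm13680 (0.74). Most of these last names are pseudogenes or predicted genes, whose reads can be shared with near-identical copies. Looked up after its values were seen, Bpifa1 was closest to lactoferrin, Ltf (0.89), and to the salivary and airway scavenger protein Dmbt1 (0.81).

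FAD4T thyroids were compared with WT thyroids at each age and sex, with edgeR's quasi-likelihood test across 18493 genes in 24 libraries and Benjamini-Hochberg adjustment. In males of 2 months none of the 35 genes passed an adjusted p of 0.05, as was the case for 0% of all genes. An unadjusted p under 0.05 was reached by 8 of the 35 and by 14.5% of all genes, and DESeq2 called 1 of the 35 and 102 genes in all. The fold changes were positive for 34 of the 35 genes, with a median log2 fold change of 0.99, against 0.02 over all genes. Dnai1, Hydin and Sftpa1 had groups that did not overlap, higher in FAD4T, as for 6.31% of all genes, and 0 of the 35 were lower without overlap, against 5.82% of all genes. Sec14l3 had the smallest p, with a log2 fold change of 3.78 (SE 0.89) and an adjusted p of 0.343, and DESeq2 gave it an adjusted p of 0.00673. The count of positive fold changes was 26 of 35 without FAD4T replicate 1 and 29 of 35 without FAD4T replicate 3, the libraries named above for Bpifa1 and Foxj1. The thymocyte list level also differed between these groups, at 0.48 to 4.92 in FAD4T males and 0.23 to 0.33 in WT males, with a summed level of 4.03 to 377.8 CPM against 1.61 to 2.63 CPM, and 0 of its 9 genes passed the test. The 5 libraries of high thymocyte level were also left out, a choice made after seeing the data that removed part of the FAD4T males. Then 29 of the 35 fold changes were positive and 6 negative, with a median of 1. The part of thymus tissue in these values was not tested.

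In females of 2 months, 13 of the 35 genes were positive and 22 negative between FAD4T and WT, the median log2 fold change was -0.23, and none passed the edgeR quasi-likelihood test, as for 0% of all genes. Without FAD4T replicate 3 that test called 3001 genes in all, without WT replicate 2 it called 100 and without WT replicate 3 it called 130, with 0 of the 35 among them. An unadjusted p under 0.05 was reached by 1 of the 35 and by 16.7% of all genes, and DESeq2 called none of the 35 and 293 genes in all. That gene was Aldh1a1, at 12.4, 12.7 and 16.4 CPM in FAD4T females and 88.4, 17.1 and 23.9 CPM in WT females, with a log2 fold change of -1.65 (SE 0.57) and an adjusted p of 0.2 in edgeR's quasi-likelihood test. The groups of 5 genes did not overlap, lower in FAD4T: Aldh1a1, Tekt4, Sec14l3, Scgb1a1 and Scgb3a1, as for 3.93% of all genes. None was higher without overlap, against 6% of all genes. Without WT replicate 1, the library rich in liver transcripts, 23 of the 35 fold changes were positive and 12 negative. Without the 5 libraries of high thymocyte level, a choice made after seeing the data that left 1 FAD4T female of 2 months, 6 were positive and 29 negative, with a median of -0.54. The thymocyte list level was 0.34 to 4.20 in FAD4T females and 0.16 to 1.44 in WT females, and all 9 of its fold changes were positive (median log2 fold change 4.18). The skeletal muscle list level was 1.28 to 5.94 in FAD4T females and 5.60 to 8.75 in WT females, and all 8 of its fold changes were negative (median -2.46). None of these genes passed the test, and their part in the values was not tested. The difference between the FAD4T effects of females and males at 2 months reached an adjusted p of 1 for all 35 genes in edgeR's quasi-likelihood test, with 6 of the 35 and 4.02% of all genes at an unadjusted p under 0.05. DESeq2 called 33 genes in all for that difference.

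At 8 months none of the 35 genes was called between genotypes either. In males none of the 35 genes passed the edgeR quasi-likelihood test, as for 0% of all genes, 0 of the 35 and 1.81% of all genes had an unadjusted p under 0.05, and DESeq2 called 0 genes in all. Spag16, of the central pair, had the smallest p, at 0.418, 0.327 and 0.304 CPM in FAD4T males and 0.0595, 0.317 and 0 CPM in WT males, a log2 fold change of 1.38 (SE 0.99) with an adjusted p of 1 in edgeR's quasi-likelihood test. Scgb3a1 was at 6.44, 6.58 and 12.5 CPM in FAD4T males and 3.81, 2.64 and 3.22 CPM in WT males, a log2 fold change of 1.4 (SE 1.17). It and Scgb3a2 had groups that did not overlap, higher in FAD4T, as for 5.22% of all genes, and none was lower without overlap, against 5.58% of all genes. In females none of the 35 passed, against 0.0216% of all genes, with 1 of the 35 and 4.66% of all genes at an unadjusted p under 0.05, and DESeq2 called 0 of the 35 and 77 genes in all. That gene was Bpifa1, which averaged 7.22 ± 6.07 CPM in FAD4T females and 49.4 ± 31.1 CPM in WT females (SD, n = 3 each), with a log2 fold change of -2.78 (SE 1.04) and an adjusted p of 1 in edgeR's quasi-likelihood test. Bpifa1 was the single one of the 35 genes whose female groups of 8 months did not overlap, lower in FAD4T, as for 7.02% of all genes, and none was higher without overlap, against 5.96%. Kidney transcripts differed as well. Their summed level was 0.220 to 0.620 CPM in FAD4T females and 9.59 to 13.1 CPM in WT females, 2 of the 8 genes fell, and 4 to 6 of the genes were at 0 in each FAD4T library. The skeletal muscle list was at levels of 1.26 to 1.72 in FAD4T females and 5.54 to 8.87 in WT females, with 0 of its 8 genes past the test. Their part in the Bpifa1 values was not tested. The difference between the FAD4T effects of females and males at 8 months gave no call among the 35 genes in edgeR's quasi-likelihood test, with 1 of the 35 and 2% of all genes at an unadjusted p under 0.05 and 9 genes called in all by DESeq2.

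**Figure D4:**
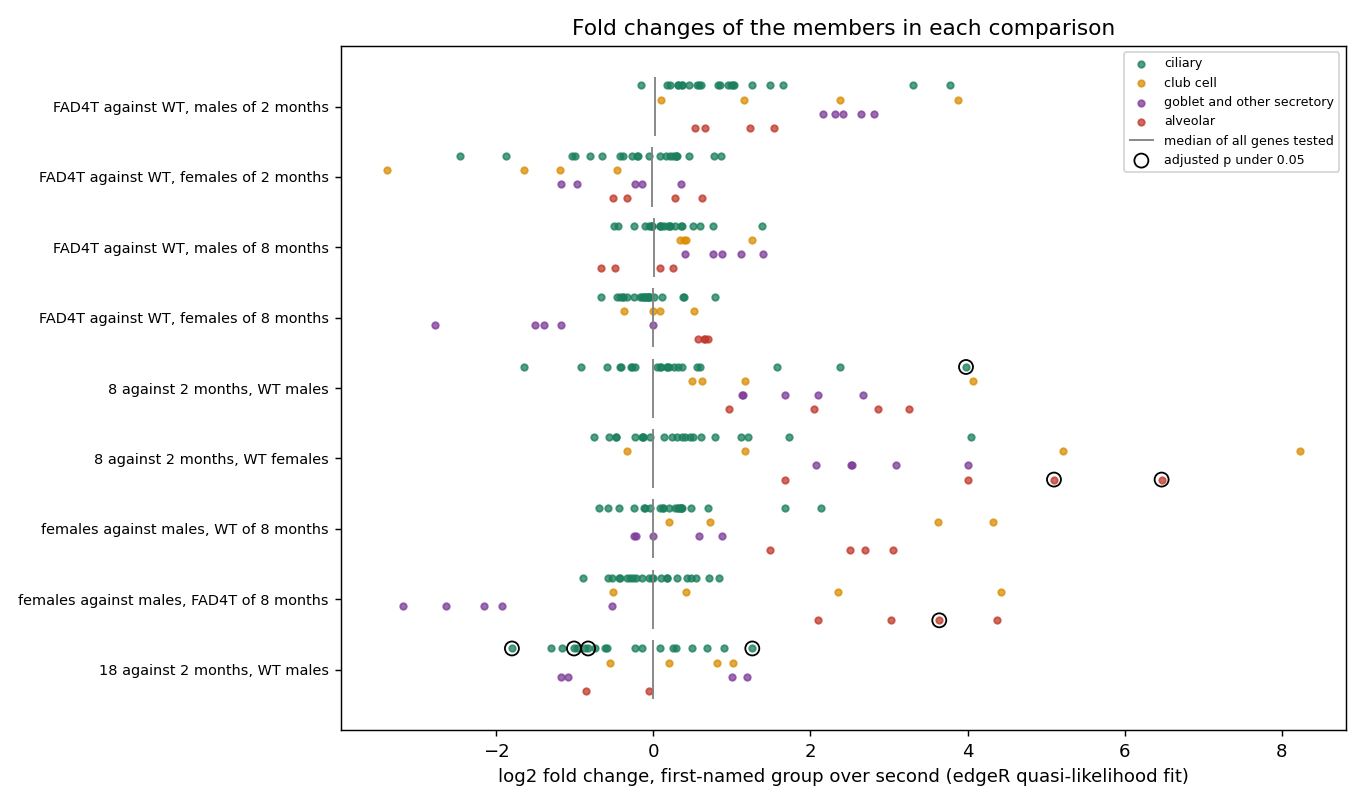
log2 fold change of each tested gene (points, coloured by class) in 9 comparisons, first-named group over second, with the median of all tested genes as a grey line and rings around genes with an adjusted p under 0.05 in the edgeR quasi-likelihood test. In WT females of 8 against 2 months the alveolar genes have a median of 4.55 and the club cell genes one of 3.19, with Scgb1a1 at 8.23.

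Surfactant genes Sftpa1 and Sftpc were called higher in WT females of 8 months than in those of 2 months, but not in every fit. The 35 genes were chosen with such differences known, so these calls describe the libraries. At 8 against 2 months, 2 of the 35 genes rose and none fell, against 0.254% of all genes called, 0.205% higher and 0.0487% lower. An unadjusted p under 0.05 was reached by 10 of the 35 and by 8.55% of all genes. Sftpa1 was at 2.58, 8.04 and 19.4 CPM at 8 months and 0.563, 0.181 and 0.113 CPM at 2 months, without overlap, a log2 fold change of 5.1 (SE 0.73) with an adjusted p of 0.00538 in edgeR's quasi-likelihood test. Sftpc averaged 53.6 ± 47.8 CPM at 8 months and 0.605 ± 0.368 CPM at 2 months (SD, n = 3 each), a log2 fold change of 6.47 (SE 1.22) with an adjusted p of 0.0311. The Sftpc groups overlapped because of WT replicate 1 of 8 months, and its adjusted p was 0.0554 with the replicate number as a block. Scgb1a1 had the larger log2 fold change, 8.23 (SE 1.72), with an adjusted p of 0.0541. In all, 12 of the 35 genes had groups that did not overlap, higher at 8 months, as for 5.52% of all genes, and 1 (Tekt4) was lower without overlap, against 6.71%. The 12 include all 5 goblet and secretory genes, with log2 fold changes of 2.07 to 4.0 and adjusted p of 0.226 or more in the same edgeR test. Without WT replicate 1 of 8 months 78 genes were called in all, and 5 of the 35 rose: Scgb1a1, Sftpc, Sftpa1, Sftpb and Sftpd. Leaving out any other of the 6 libraries ended the Sftpc call, and Sftpa1 was called whichever was left out. Sftpa1 was not called with these groups fitted alone (adjusted p of 0.391 in edgeR's quasi-likelihood test). Without WT replicate 1 of 2 months the club cell gene Cyp2f2 rose, with a log2 fold change of 2.62 and an adjusted p of 0.00926 in the same test.

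In WT males, 8 against 2 months, 1 of the 35 genes rose and none fell, against 0.692% of all genes called, 0.422% higher and 0.27% lower. An unadjusted p under 0.05 was reached by 6 of the 35 and by 11.7% of all genes, and 9 of the 35 were higher without overlap and none lower, against 11.9% and 9.32% of all genes. That called gene was Sec14l3, at 3.51 ± 2.08 CPM at 8 months and 0.212 ± 0.155 CPM at 2 months (SD, n = 3 each), a log2 fold change of 3.98 (SE 0.89) with an adjusted p of 0.0423 in edgeR's quasi-likelihood test. Sftpa1 had a log2 fold change of 2.86 (SE 0.74) and an adjusted p of 0.0803, and Scgb1a1 a log2 fold change of 4.07 (SE 1.58) and an adjusted p of 0.279. The Sec14l3 call was kept when WT replicate 2 of 8 months was left out and lost when any other of the 6 libraries was. The median log2 fold change was 0.14 over the 22 ciliary genes, 0.90 over the club cell genes, 1.67 over the goblet and secretory genes and 2.46 over the alveolar genes, against 0 over all genes.

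Transcripts of other organs also differed with age in these libraries. In WT females the kidney list summed to 9.59 to 13.1 CPM at 8 months and 0.362 to 0.509 CPM at 2 months, and 3 of its 8 genes rose. In WT males it summed to 16.7 to 41.6 CPM at 8 months and 0.129 to 0.670 CPM at 2 months, and 5 of its 8 genes rose. The liver list summed to 251.2 to 521.3 CPM in WT males of 8 months and 2.00 to 4.79 CPM in WT males of 2 months, with 0 of its 10 genes past the test. In WT females it summed to 193.4 to 580 CPM at 8 months and 7.58 to 3424 CPM at 2 months, and all 10 fold changes were negative (median log2 fold change -1.48) with 0 past the test. FAD4T females of 8 months had the Scgb1a1 and Sftpc levels given above with kidney transcripts at 0.620 CPM or less in sum and liver transcripts at 243.8 to 270.6 CPM. The part of tissue or RNA from other organs in the age comparisons was not tested.

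The surfactant gene Sftpa1 was higher in females than in males of 8 months in FAD4T thyroids. It was the single one of the 35 genes called higher and none was called lower, against 0.27% of all genes called, 0.108% higher and 0.162% lower. An unadjusted p under 0.05 was reached by 8 of the 35 and by 8.7% of all genes. Sftpa1 averaged 15.7 ± 2.07 CPM in females and 1.28 ± 0.805 CPM in males (SD, n = 3 each), with a log2 fold change of 3.64 (SE 0.64) and an adjusted p of 0.0095 in edgeR's quasi-likelihood test. The call was lost without FAD4T male replicate 2 or 3. All 4 alveolar genes and both Scgb1a1 and Scgb3a2 had groups that did not overlap, higher in females, as for 9.97% of all genes. Bpifa1, Scgb3a1, Muc5b, Reg3g, Cfap43 and Cfap44 were lower in females without overlap, as were 13.6% of all genes. Bpifa1 averaged 7.22 ± 6.07 CPM in females and 66.5 ± 2.32 CPM in males, a log2 fold change of -3.19 (SE 1.06) with an adjusted p of 0.299 in edgeR's quasi-likelihood test. The kidney list summed to 0.220 to 0.620 CPM in these females and 19.7 to 30.6 CPM in these males, and 3 of its 8 genes were lower in females. The skeletal muscle list level was 1.26 to 1.72 in females and 2.88 to 10.58 in males, with all 8 fold changes negative (median log2 fold change -8.49). The thymocyte list level was 0.26 to 0.36 in females and 0.21 to 2.95 in males, with all 9 fold changes negative (median -3.63), and the salivary gland level 0.70 to 0.80 in females and 1.08 to 1.77 in males (median -3.88 over 3 tested genes). No gene of these 3 lists passed the test, and the part of these tissues was not tested.

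In WT thyroids of 8 months none of the 35 genes passed the edgeR quasi-likelihood test between females and males. Of all genes 0.27% passed, 0.178% higher and 0.0919% lower. An unadjusted p under 0.05 was reached by 7 of the 35 and by 5.09% of all genes, and DESeq2 called 1 of the 35 and 96 genes in all. Scgb3a2, Cyp2f2 and Tppp3 were higher in females without overlap and Dnah12 lower, as for 5.41% and 7.13% of all genes. Sftpa1 had the smallest adjusted p, 0.141 in edgeR's quasi-likelihood test, at a log2 fold change of 2.5 (SE 0.61). Without WT female replicate 1, Sftpc and Sftpa1 were higher in females, with log2 fold changes of 3.63 and 2.96. Their adjusted p was 0.0133 and 0.0145 in the same test, which called 84 genes in all there.

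In the ageing set, 18 against 2 months in WT males, 29 of the 35 genes had enough counts to be tested, across 16283 genes in 6 libraries. Of these 1 rose and 3 fell, against 35.9% of all genes called, 17.1% higher and 18.8% lower, so the share called was smaller than among all genes. An unadjusted p under 0.05 was reached by 5 of the 29 and by 46.4% of all genes. All 4 called genes were among the 19 ciliary genes tested, a smaller share than the 35.9% of all genes, and 3 were tektins. Tekt1 was at 40.2, 30.2 and 46.0 CPM at 18 months and 16.4, 13.5 and 18.3 CPM at 2 months, and it rose by 1.26 on the log2 scale (SE 0.18, adjusted p 0.00187 in edgeR's quasi-likelihood test). Tekt4, a tektin of cilia and sperm tails, was at 0.378, 0.724 and 0.800 CPM at 18 months and 2.49, 1.80 and 2.32 CPM at 2 months, with a log2 fold change of -1.80 (SE 0.43, adjusted p 0.0117). Tekt2 was at 2.11, 2.05 and 1.89 CPM at 18 months and 3.67, 3.45 and 3.58 CPM at 2 months, with a log2 fold change of -0.83 (SE 0.29, adjusted p 0.0488). Cfap126, which helps place basal bodies, was at 4.22, 4.16 and 2.69 CPM at 18 months and 7.58, 5.48 and 9.05 CPM at 2 months, with a log2 fold change of -1.01 (SE 0.29, adjusted p 0.0262). None of these 4 genes had overlapping groups, and, with Bpifb1, 4 of the 29 were lower without overlap and 1 higher, against 26% and 25.4% of all genes. Tekt1 and Tekt4 were called whichever of the 6 libraries was left out, but Tekt1 was not called in a fit of all 30 libraries (adjusted p 0.106 in edgeR's quasi-likelihood test). Tekt2 was called in none of those fits and not by DESeq2, and Cfap126 was not called without replicate 4 or 6 of 2 months or replicate 3 of 18 months.

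Tekt1 moved beside the thyrotropin receptor in this comparison, Tshr being higher at 18 months by 1.59 on the log2 scale (SE 0.17, adjusted p 0.000981 in edgeR's quasi-likelihood test). The follicle list level was 8.34 to 8.66 at 18 months and 7.90 to 8.42 at 2 months, and its part was not tested. Scgb1a1 and Sftpc were low in these males at both ages, and no females of 18 months were sequenced. Scgb1a1 was at 1.40, 0.362 and 3.43 CPM at 18 months and 2.26, 2.19 and 0 CPM at 2 months. Sftpc was at 1.03, 0.543 and 0.457 CPM at 18 months and 1.02, 0.784 and 0.281 CPM at 2 months. WT males of 8 months, outside this set, had Scgb1a1 at 20.2, 6.55 and 12.1 CPM and Sftpc at 11.7, 3.59 and 4.37 CPM. Bpifa1 was at 85.6, 15.6 and 50.5 CPM at 18 months and 35.4, 26.7 and 12.8 CPM at 2 months, with overlapping groups. Muc5b, Sftpa1, Sftpd, Dnah5, Spag6 and Spag16 had too few counts to be tested. The 2-month males numbered 1 to 3 had Tekt2 at 2.74, 1.74 and 2.28 CPM, all below those numbered 4 to 6, and with them in place of numbers 4 to 6, in a fit of all 30 libraries, none of the 4 genes was called. That fit called only Tekt4 of the 4 genes when numbers 4 to 6 were kept (log2 fold change -1.77, adjusted p 0.00771 in edgeR's quasi-likelihood test). Kidney and liver transcripts were low at both ages, the liver list summing to 1.26 to 3.32 CPM at 18 months and 12.2 to 20.8 CPM at 2 months, with 3 of its 4 tested genes lower at 18 months.

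**Figure D5:**
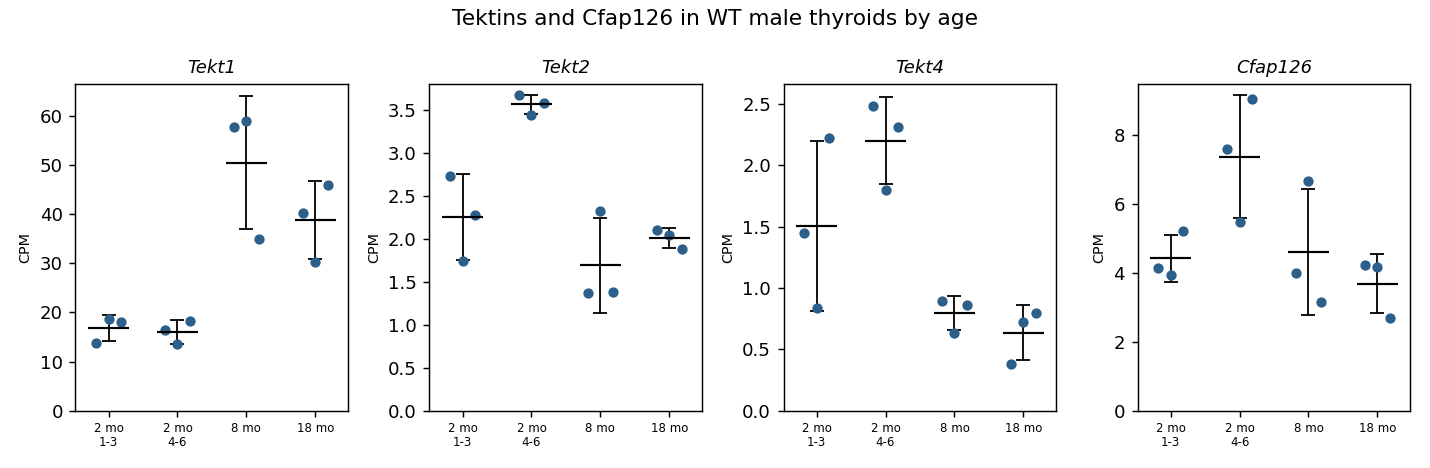
Level of Tekt1, Tekt2, Tekt4 and Cfap126 in CPM in WT males by age, with the 2 sets of 2-month males (numbers 1 to 3 and 4 to 6) apart; points are libraries and bars the mean with SD (n = 3). Tekt1 is higher and Tekt4 lower at 18 months than in both 2-month sets, whereas Tekt2 at 18 months overlaps the set numbered 1 to 3.

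Further genes of the same cell types were counted by list. Of 48 other genes of motile cilia, 29 were tested in the ageing set, where 35.9% of all genes were called, 17.1% higher and 18.8% lower. Among these 29, Ak7 rose (log2 fold change 0.94, adjusted p 0.0395) and Rsph9, Cfap52 and Ropn1l fell (-0.62, -0.70 and -1.02 in log2 fold change, adjusted p 0.0192, 0.0366 and 0.0369 in edgeR's quasi-likelihood test). Of 12 tested genes among 16 other club and goblet genes, 2 rose and 3 fell with age, and of 7 tested among 10 other alveolar genes, 1 rose and 2 fell, among them Abca3 (0.64) and Napsa (-1.29). In the comparisons of FAD4T with WT, of 8 with 2 months and of females with males, 0 genes of these 3 lists passed the edgeR quasi-likelihood test. In males of 2 months 39 of 41 tested motile cilium genes had a positive FAD4T fold change, with a median log2 fold change of 0.62, and 51.9% of all genes had a positive one. The list level was 1.65, 1.48 and 2.25 in FAD4T males, replicate 3 being the highest, and 1.59, 1.46 and 1.37 in WT males. The 8 airway basal cell genes had a list level of 1.84 to 2.15 in FAD4T females of 8 months and 2.08 to 2.30 in WT females of 8 months, within the range of 1.23 to 2.80 over all libraries. Over all libraries, the list level was 0.91 to 2.03 for 13 cartilage genes, 0.10 to 0.57 for 8 genes of the squamous oesophagus and 0.69 to 1.25 for 7 genes of tuft cells and ionocytes. It was 1.19 to 4.29 for 6 thymic epithelium genes, 5.35 to 8.21 for 4 C cell genes and 0.55 to 2.36 for 7 salivary gland genes, whose highest sum, 1566 CPM, was in replicate 2 of the WT males of 18 months, the library with the highest Cyp2f2 level.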

How the data were processed

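Poly(A) RNA of 30 mouse thyroids was sequenced as paired reads, per the labels' protocols. The deposited values are raw counts per gene, made by the authors with featureCounts 1.6.0 on Ensembl release 88 of GRCm38, without a strand option, per the file headers. The submitters' processing notes list GRCm39, with HISAT2 2.0.4, cutadapt 1.9 and StringTie 1.3.4d among the tools, so the build differs between these sources, and the headers' build is used here. The kit marked strand, per the labels' protocols, but counting did not use it.

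The 35 genes and all marker lists were chosen with earlier results of these data known. Counts were tested with edgeR 4.0.16 (TMM, filterByExpr with a minimum count of 10, robust quasi-likelihood fit, Benjamini-Hochberg adjustment at 0.05) in R 4.3.3, with limma 3.58.1. One fit held 24 libraries of the FAD4T and WT groups and another the 6 libraries of the ageing set. No design column stands for a litter or batch, since the labels give none. The p-values rest on the spread between libraries within groups, estimated over all groups of a fit and not the compared groups alone. That spread includes the uneven levels of transcripts from other tissues. Named in each comparison were the genes with an adjusted p under 0.05 and at least 1 CPM in 1 group, or else the gene with the smallest p, and genes outside this rule were chosen after their values were seen. Tekt1 and Bpifa1 neighbours and the parathyroid clusters were too. Libraries held 14083958 to 20256049 counts, and 0 of 30 pairs within groups were identical. The alternatives tried were no filter on low counts, DESeq2 1.42.0, edgeR with DESeq2 size factors, other samples in the fit, the replicate block, each replicate left out, and, added after seeing the data, the 5 libraries of thymocyte level above 2 left out. The scripts were tested on simulated data. Same-numbered libraries deviated together (every correlation over 0.1) in 1 of 8 comparisons, FAD4T against WT males of 8 months. No label names pairs of mice, and the main test of that comparison used group means without pairs. With the replicate number as a block, fitted over the 24 libraries, 0 genes were called in that comparison.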

Additional observations from a re-analysis of the deposited data

How the results depend on the processing

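Under alternatives 288 values were compared. They were counts of called genes by direction, and the highest levels of Foxj1, Tppp3, Scgb1a1, Muc5b and Sftpc under other scalings. Of these 256 stayed the same (counts within 1.5 times, levels within their SD over libraries), 21 lost calls and 11 gained them. Most of the 256 were counts of 0 that stayed 0, so they say little on how well a call held. Calls could be lost only in the comparisons where genes had been called. With DESeq2 the count of genes called higher was 1 for FAD4T against WT males of 2 months, 3 for 8 against 2 months in WT males, 7 in WT females, 1 for females against males in WT and 4 in FAD4T, where 1 was lower. Over all genes DESeq2 called 102, 489, 267, 96 and 314 in these comparisons, in that order and in either direction. With no filter on low counts the count called higher was 0 for 8 against 2 months in WT males and 1 in WT females. These fits called 78 and 57 genes in all. With the compared groups alone the count called higher was 4 in WT males and 0 in WT females for age, and 5 for females against males in FAD4T. Over all genes 455, 1 and 256 were called there. With the replicate block, Sftpc lost its call in WT females of 8 against 2 months. That left 1 of the 35 genes called, and 41 genes in all. Same-numbered libraries did not all deviate together there, and the block changed no other call among the 35 genes. In the ageing set, a fit of all 30 libraries called 0 higher and 1 lower, and the 2-month males numbered 1 to 3 gave 0 higher and 0 lower. Over all genes 6222 and 1776 were called in these fits. No paired analysis was possible for the ageing set because its groups share no replicate numbers. Leaving out each replicate gave 0 to 1 called higher for age in WT males, 1 to 5 in WT females, 0 to 2 for females against males in WT, 0 to 1 in FAD4T, and 1 to 2 higher and 1 to 4 lower in the ageing set. The calls over all genes were 30 to 55, 10 to 211, 23 to 84, 28 to 39 and 3651 to 5470 in these comparisons, in that order. The median log2 fold change over the 35 genes, which was not tested, changed sign in 4 comparisons. For FAD4T against WT females of 2 months it was -0.23, and 0.31 without WT replicate 1. For FAD4T against WT females of 8 months it was -0.08, and 0.05 without FAD4T replicate 1 and 0.21 without WT replicate 2. For females against males in FAD4T it was -0.02, and up to 0.15 when single libraries were left out. In the ageing set it was -0.23, 0.43 with the 2-month males numbered 1 to 3 (25 positive and 10 negative) and 0.34 without replicate 4 of 2 months. The cause of these differences was not tested. Depth limits the 7 genes with a median under 10 counts most.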
